A study of Homo sapiens with 6 samples.

Results

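Accessible chromatin at 4 signalling genes, DUSP6, IRS1, SMAD3 and TGFBR2, was described in NB4 cells, a human acute promyelocytic leukaemia line. The genes code for an ERK phosphatase, an insulin receptor substrate, a TGF-beta signal transducer and a TGF-beta receptor. The members are the 5 regions, out of 591 in both deposited tables, whose nearest gene is 1 of these 4. The DMSO table held 3 of 323 regions (DUSP6, IRS1 and SMAD3) and the one for ATRA held 2 of 268 (IRS1 and TGFBR2). The assay was ATAC-seq: Tn5 transposase cuts and tags open DNA, and reads per region rise with accessibility. In each treatment 1 library came from cells labelled as control (a column name abbreviates it as scr) and 2 from cells with SMARCD2 knocked down, 1 with shRNA1 and 1 with shRNA2. SMARCD2 is a subunit of the BAF (SWI/SNF) remodelling complexes. The undifferentiated cells received DMSO and the differentiated cells 1 µM all-trans retinoic acid (ATRA), which drives NB4 cells towards granulocytes. All groups share the NB4 background, and the 2 hairpins were the only replicates of the knockdown. The labels do not say whether libraries came from separate cultures. With 1 library per hairpin in each treatment, the spread between knockdown libraries mixes hairpin, culture and technical differences. These cannot be told apart.

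Growth factor receptors signal through RAS, RAF and MEK to ERK, and DUSP6 removes the activating phosphates from ERK in the cytoplasm and is itself induced by ERK, which makes it a feedback inhibitor. IRS1 is phosphorylated by the insulin and IGF1 receptors and then recruits PI3K. TGFBR2 binds TGF-beta ligands, and the activated receptor complex phosphorylates SMAD3, which enters the nucleus with SMAD4. TGF-beta signalling restrains the growth of many haematopoietic cells.

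Coordinates of regions below are on GRCh37.p13, the build in the submitters' processing notes. The regions lay at chr12:89747165-89748155 (DUSP6), chr2:227664195-227664346 and chr2:227667360-227667468 (IRS1), chr15:67390745-67391014 (SMAD3) and chr3:30648380-30648465 (TGFBR2). The SMAD3 and TGFBR2 regions overlapped their genes, at a listed distance of 0 bp, and exon or intron was not assigned here. The DUSP6 region lay 868 bp from its gene, and the IRS1 regions 688 bp and 3853 bp from theirs. The files do not say on which side of DUSP6 its region lies. For IRS1 the side follows from the values: the farther region starts 3165 bp higher and its distance is also 3165 bp larger, so both lie beyond the edge with the higher coordinate. The strand column gives IRS1 as minus, which makes that edge the 5′ end. That column equalled the RefSeq strand of the nearest gene in 460 of 461 regions whose gene could be looked up.

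Because a listed region lay within 1 kb of DUSP6 and of IRS1 without overlapping the gene, the 250 bases before each gene's start are given here. They are RefSeq sequence on GRCh38.p14, 5′ to 3′ on the gene's strand, and not the sequence of the listed regions, which was not read here. All 4 genes had such a window. The DUSP6 window is chr12:89352502-89352751 and the IRS1 window chr2:226799821-226800070, both minus strand. Capitals mark a CCAAT box (CCAAT) in DUSP6 and GC boxes (GGGCGG) in IRS1, searched on both strands after the windows had been read.
DUSP6: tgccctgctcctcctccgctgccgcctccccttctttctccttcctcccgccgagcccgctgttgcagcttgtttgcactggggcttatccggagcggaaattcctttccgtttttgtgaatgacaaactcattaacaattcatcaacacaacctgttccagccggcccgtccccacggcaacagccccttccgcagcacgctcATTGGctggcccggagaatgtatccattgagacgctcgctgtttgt
IRS1: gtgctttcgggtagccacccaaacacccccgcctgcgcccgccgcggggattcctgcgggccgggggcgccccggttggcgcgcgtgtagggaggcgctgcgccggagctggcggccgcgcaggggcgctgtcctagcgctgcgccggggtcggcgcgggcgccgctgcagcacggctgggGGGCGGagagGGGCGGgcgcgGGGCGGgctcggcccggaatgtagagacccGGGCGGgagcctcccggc
The IRS1 window held 4 GC boxes and 0 CCAAT boxes, and the DUSP6 window 0 and 1. A GC box was present in 42.6% and a CCAAT box in 32.0% of all 35116 windows of this length. G and C made up 80.8% of the IRS1 window and 57.2% of the DUSP6 window, against a median of 58.0% over all windows. The motifs of factors active in myeloid cells or downstream of these pathways were also searched on both strands, with 0 matches in either window. The ETS core GGAAGT occurs in 19.5% of all windows and the CEBP motif TTGCNNAA in 9.05%. The RUNX motif TGTGGT occurs in 11.0%, and the GATA motif AGATAA in 9.17%. The SMAD half-site CAGAC occurs in 38.0% of windows. The AP-1 motif TGANTCA occurs in 6.57%, and the retinoic acid receptor half-site AGGTCA in 12.1%. SMAD3 and TGFBR2 have more than 1 window each, not printed here. Among those of SMAD3, 1 held 2 RUNX motifs and another 1 AP-1 motif. A further 1 held 1 SMAD half-site and 2 retinoic acid receptor half-sites, and another held 3 SMAD half-sites. ETS, CEBP and GATA motifs had 0 matches in SMAD3 windows, and the TGFBR2 windows had 0 matches to any of these motifs.

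Effective library sizes, recovered from the deposited fold changes, were 11497000 to 14718000 reads in DMSO and 14373000 to 17632000 in ATRA. Regions were selected on the measured reads: the tables hold those whose unadjusted p in the authors' test of knockdown against control was under 0.005 and whose nearest gene was within 10 kb. Every member is therefore present because its libraries differed in that contrast, and its values are a description with no test. The highest p among the members, 0.00427 at DUSP6 in the authors' deposited table, was nearest the limit, and regions beyond it were not analysed here. Of the 6 promyelocyte markers looked up, 1 (AZU1) had a region in DMSO and 0 in ATRA, and 0 of 9 monocyte, erythroid and lymphoid markers did in either. A table of differing regions cannot show whether the other marker loci were open. SMARCD2's transcript is not measured by this assay, so the knockdown itself was not checked.

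Accessibility was higher in the knockdown than in the control at 2 of 3 member regions in DMSO (IRS1 and SMAD3) and at 1 of 2 in ATRA (TGFBR2). Of all listed regions, 65.9% were higher in DMSO and 79.1% in ATRA, and 34.1% and 20.9% were lower. On the scale of the deposited normalized counts, which lowers every knockdown to control ratio in ATRA, 69.4% were higher in ATRA and 65.9% in DMSO. The selection of the tables used this contrast, so nothing is read from the members' split. Levels are given as CPM, reads per 1000000 reads of the recovered library size. At each of the 5 regions the control library was either the lowest or the highest of the 3. Selection on this contrast favours such an order. The share over all listed regions was not counted, so nothing is read from it for the members.

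**Figure D1:**
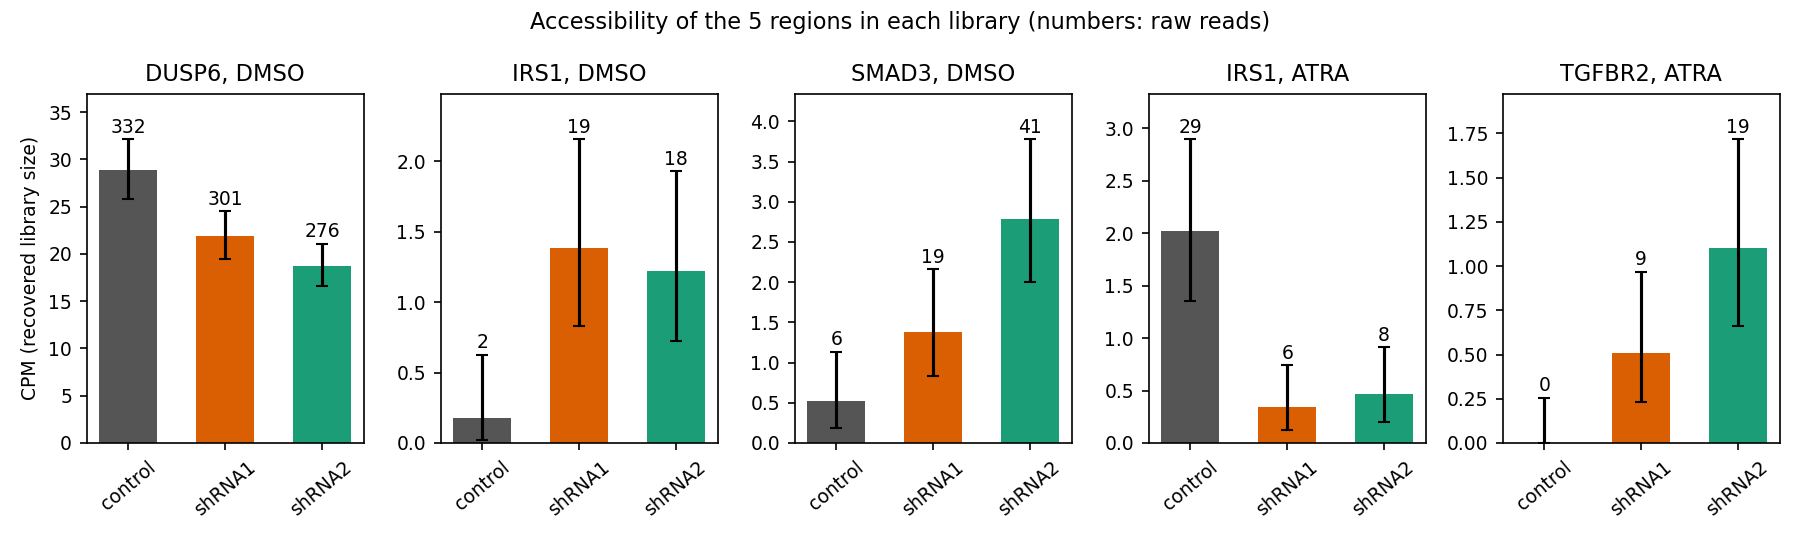
CPM (vertical axes start at 0 and differ between panels) in the control, shRNA1 and shRNA2 libraries at each region, with raw reads printed above the bars. Bars are single libraries and whiskers 95% exact Poisson intervals, which cover counting error only; at DUSP6 the libraries hold 332, 301 and 276 reads, and at TGFBR2 they hold 0, 9 and 19.

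The DUSP6 region was the deepest of the 5 and the least changed. It had 332 reads in the control, 301 with shRNA1 and 276 with shRNA2, or 28.9, 21.9 and 18.8 CPM. Both hairpins lay below the control and the groups did not overlap. Normalized counts, as deposited, were 247 ± 27.1 (SD, n = 2) with the hairpins against 399 in the control. Accessibility was 1.42-fold lower in the knockdown (95% exact counting interval 1.24 to 1.63), and 1.62-fold lower (1.41 to 1.85) on the normalized count scale. The authors' deposited table gives a log2 fold change of -0.51. The hairpins differed from each other by 1.17-fold (0.988 to 1.38), a gap of 0.22 on the log2 scale, while the nearer hairpin lay 0.40 from the control. The spread between control cultures was not measured, since there was 1 control library.

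At 991 bp, the DUSP6 region was the third widest of the 323 DMSO regions, against a median of 141 bp. It also ranked 3 of 323 in mean CPM. Per kilobase it held 29.1 CPM in the control, 22.1 with shRNA1 and 18.9 with shRNA2, and ranked 10 of 323 in mean density. Only 2 of the 110 lower DMSO regions had a smaller fold change, and the median size of the log2 fold change among them was 1.58. In the authors' deposited table the F score of 9.89 stands beside p = 0.00427, where the relation between F and p in most regions gives 0.00166. The deposited p was likewise larger than that relation gives, by over 1%, in 40 of 323 DMSO regions.

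IRS1 had 1 region in each table, and the 2 went in opposite directions. The region nearer the gene, 152 bp wide and listed in DMSO, had 2 reads in the control, 19 with shRNA1 and 18 with shRNA2, or 0.174, 1.38 and 1.22 CPM. Both hairpins lay well above the control and close to each other, with a ratio of 1.13 (0.561 to 2.28). Normalized counts were 15.8 ± 1.37 (SD, n = 2) against 2.40. The region was 7.47-fold higher in the knockdown, with a wide interval (1.93 to 64.0), as the control has 2 reads, and 6.58-fold (1.70 to 56.4) on the normalized count scale. The authors' deposited log2 fold change was 2.84.

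The region farther from IRS1, 109 bp wide and listed in ATRA, had 29 reads in the control, 6 with shRNA1 and 8 with shRNA2, or 2.02, 0.340 and 0.463 CPM. Here the control was the high library and both hairpins were low, without overlap. Normalized counts were 5.24 ± 0.672 (SD, n = 2) against 53.1. Accessibility was 5.03-fold lower in the knockdown (2.57 to 10.3), and 10.1-fold lower (5.17 to 20.7) on the normalized count scale. The authors' deposited log2 fold change was -2.31. The hairpins differed by 1.36-fold, in an interval (0.414 to 4.76) that includes 1. Among the ATRA regions its p ranked 22 of 268 from the smallest, and its mean density per kilobase ranked 49.

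A gap of 3013 bp separates the 2 IRS1 regions, and each is listed in 1 treatment only. The reads of the nearer region in ATRA and of the farther region in DMSO are not in the tables used, so the change between treatments at either place was not analysed. Per kilobase, the control held 1.14 CPM at the nearer region in DMSO and 18.5 at the farther region in ATRA, while the hairpins held 9.09 and 8.05 at the first and 3.12 and 4.25 at the second. These levels are of different places and different tables and are no comparison of the treatments. Of the 11 genes with a region in both tables, 8 were higher in both (SEL1L is lower in ATRA on the normalized count scale), IRS1 and MLPH were higher in DMSO and lower in ATRA, and BCL7A was the reverse. The next listed region in ATRA lay 33074 bp from the farther IRS1 region, in RHBDD1, which codes for a rhomboid protease. It had 63 reads in the control, 153 with shRNA1 and 143 with shRNA2, 1.93-fold higher in the knockdown. On the normalized count scale its ratio was 0.964, so its direction depends on the scale. The regions of the other 3 genes had 0 listed regions within 1 Mb in either table.

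**Figure D2:**
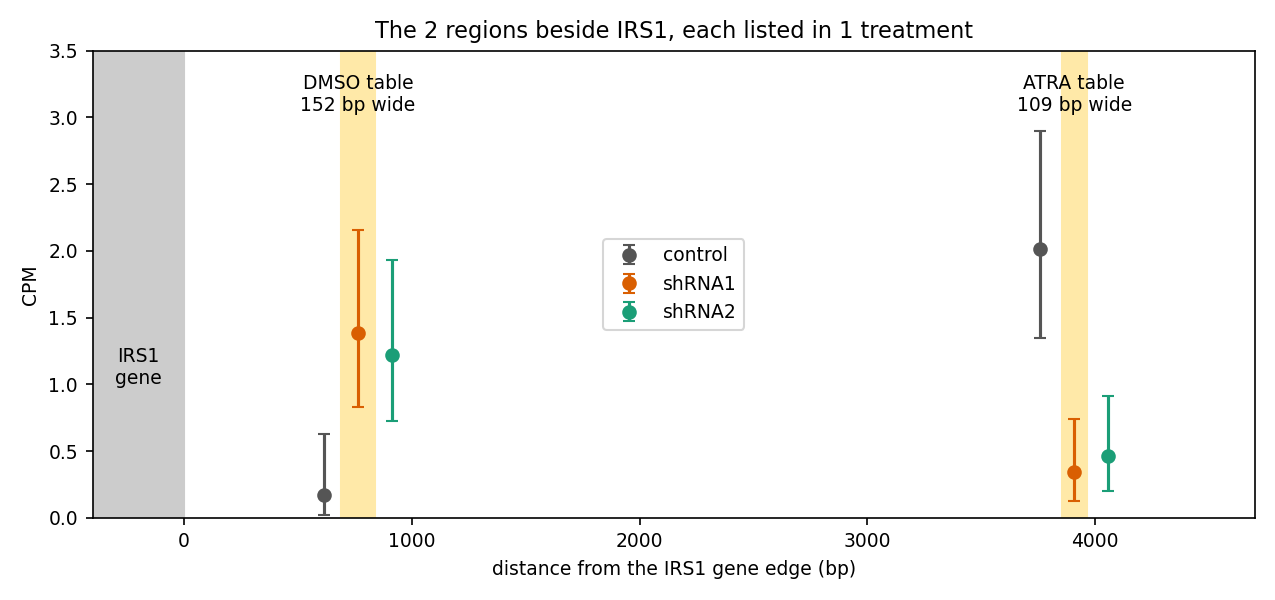
CPM (vertical axis, from 0) in each library at the 2 regions beside IRS1, against distance in bp from the 5′ edge of the gene; yellow bands are the regions and whiskers 95% exact Poisson intervals. Points are set side by side for legibility; the control (0.174) is below both hairpins at the region 688 bp away in DMSO and above them (2.02) at the region 3853 bp away in ATRA.

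The TGF-beta pathway was represented by its receptor in ATRA and its transducer in DMSO. Both regions were higher in the knockdown, as were 65.9% of all listed regions in DMSO and 79.1% in ATRA. The SMAD3 region, 270 bp wide and overlapping the gene, had 6 reads in the control, 19 with shRNA1 and 41 with shRNA2. These were 0.522, 1.38 and 2.79 CPM. Both hairpins lay above the control, and shRNA2 stood well above shRNA1. The ratio of shRNA2 to shRNA1 was 2.02, with an interval (1.14 to 3.68) that leaves out 1. With 5 such intervals looked at and 1 library per hairpin, this does not exclude counting error. Against the control, shRNA1 was 2.65-fold higher (1.02 to 8.10) and shRNA2 5.34-fold (2.25 to 15.4). Summed over hairpins the region was 4.04-fold higher (1.75 to 11.4), and 3.56-fold (1.54 to 10.1) on the normalized count scale. Normalized counts were 25.3 ± 12.1 (SD, n = 2) against 7.20. A hairpin gap at least this large was found in 52 of the 314 DMSO regions where both hairpins had reads, and the median gap was 0.43 on the log2 scale against 1.01 here.

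The TGFBR2 region was the narrowest of the 5, at 86 bp, and overlapped its gene. In ATRA it had 0 reads in the control, 9 with shRNA1 and 19 with shRNA2. The hairpins held 0.510 and 1.10 CPM, and the control 0. The floor of 3 reads stands for 0.209 CPM in the control library, and the upper end of the 95% exact Poisson interval for 0 reads is 0.257. The groups did not overlap, but 0 control reads were listed for 101 of the 268 ATRA regions (37.7%). Against the floor of 3 reads in the control library the knockdown was at least 3.84-fold higher, and with the normalized counts at least 1.92-fold. Exact intervals, in which the knockdown reads vary too, started at 2.92 and 1.46. The deposited log2 fold change of 6.74 rests on the prior count that replaces the 0 and is no bound. As at SMAD3, shRNA2 was the higher hairpin, by 2.16-fold, but the interval (0.929 to 5.41) includes 1. The 2 results come from different treatments, and SMAD3 had no listed region in ATRA nor TGFBR2 in DMSO.

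**Figure D3:**
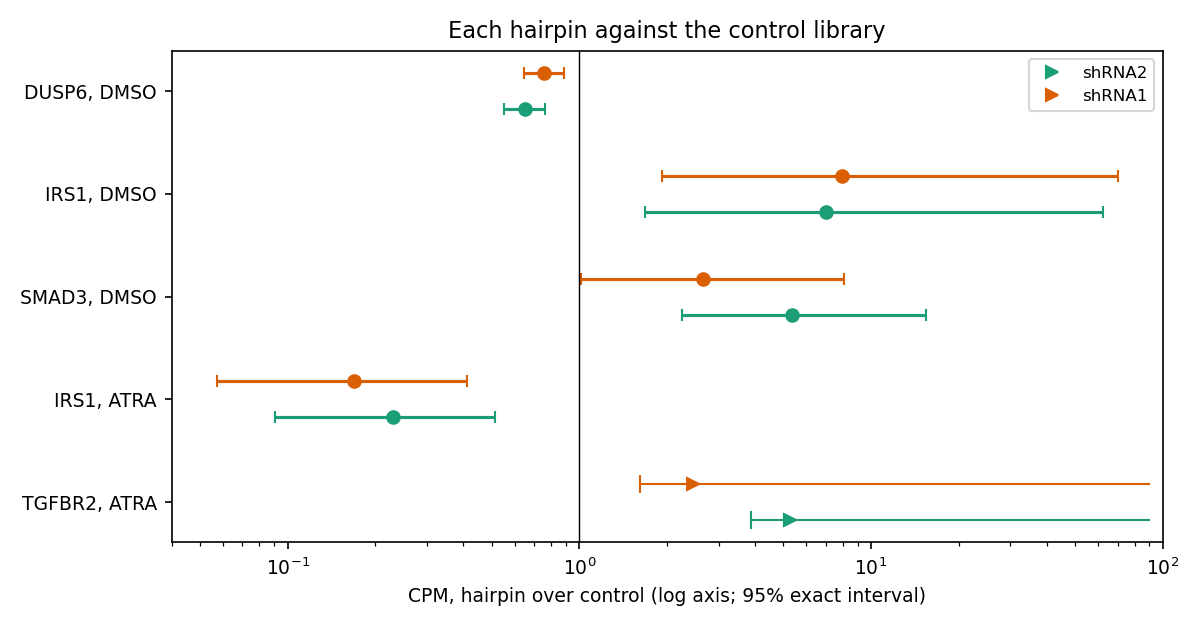
Ratio of the CPM of each hairpin to the control library of the same treatment (horizontal log axis, 1 marks no difference) for the 5 regions. Points and whiskers are ratios with 95% exact intervals; at TGFBR2 the triangles are lower bounds against 3 control reads (2.45 for shRNA1, 5.27 for shRNA2), the ticks mark the exact lower limits and the lines have no upper end.

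Of 173 genes in 4 lists of these pathways, 6 (3.47%) had a region in DMSO and 3 (1.73%) in ATRA. Of all 20056 protein-coding genes of RefSeq, 1.58% had one in DMSO and 1.3% in ATRA. The 4 genes were chosen for having a region, and of the other 169, 3 (1.78%) had one in DMSO and 1 (0.592%) in ATRA. In DMSO 4 of the 6 list regions were higher and 2 lower, where 65.9% of all listed regions were higher. In ATRA 2 of the 3 were higher and 1 lower, where 79.1% of all were higher. Their median log2 fold change was 2.19 in DMSO and 2.14 in ATRA, against 2.39 and 2.35 over all listed regions. In the list of ERK feedback inhibitors and MAP kinase phosphatases, 2 of 20 genes were listed in DMSO and 0 in ATRA. The other member besides DUSP6 was CIC, a repressor of ERK target genes that ERK signalling inactivates. Its region 397 bp from the gene had 0 control reads against 13 (shRNA1) and 14 (shRNA2). With 3 control reads as the floor it was at least 3.64-fold higher, and the exact interval started at 2.76. In the ERK cascade list 1 of 52 genes was listed in each treatment. The region in NF1, a RAS GTPase-activating protein, had 5 control reads in DMSO against 34 and 32 and was 5.33-fold higher (2.17 to 17.0). The region 363 bp from SOS2, a RAS exchange factor, had 9 control reads in ATRA against 42 and 55 and was 4.44-fold higher (2.24 to 10.0).

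Counts in the next 2 lists stand beside 1.58% of all RefSeq protein-coding genes with a region in DMSO and 1.3% in ATRA. The members among them were chosen for having a region. In the insulin and PI3K list, 2 of 51 genes were listed in DMSO and 1 in ATRA. Besides IRS1 it was SH2B2, an adaptor of the insulin receptor, whose 701 bp region had 177 control reads in DMSO against 118 and 138 and was 1.71-fold lower (1.41 to 2.08). In the TGF-beta and BMP list, SMAD3 in DMSO and TGFBR2 in ATRA were the only genes of 50 with a region. SMAD2, SMAD4, SMAD7 and TGFBR1 had 0. The lower regions of these lists in DMSO, at DUSP6 and SH2B2, were wide and deep. The higher ones, at CIC, IRS1, NF1 and SMAD3, had at most 6 control reads. Over all 323 DMSO regions, both directions pooled, the medians were 4 control reads and 141 bp. Among the 213 higher DMSO regions, 112 had 0 control reads. Medians by direction were not taken. Few control reads were thus common among the listed regions and are no trait of these genes.

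**Figure D4:**
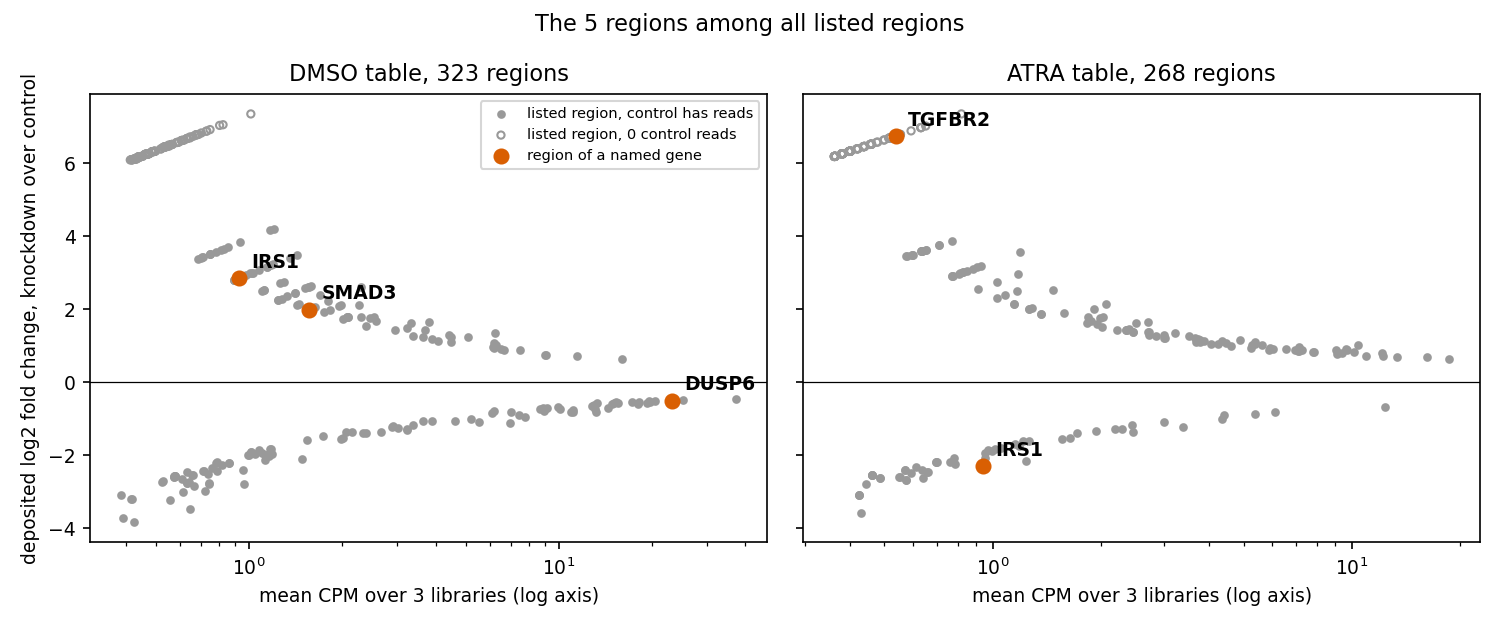
Deposited log2 fold change of knockdown over control (vertical axis) against mean CPM over the 3 libraries (log axis) for the 323 DMSO and 268 ATRA regions, with the 5 member regions in orange and regions with 0 control reads as open circles. DUSP6 sits at the deep, small-change end of the lower branch, IRS1 and SMAD3 in DMSO on the shallow higher branch, and TGFBR2 in the separate band of regions with 0 control reads.

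The regions whose 3 raw counts were most like each member's were found by the distance of log2(reads + 1). For DUSP6 they were in ACAP2 (359 control reads, 326 with shRNA1, 302 with shRNA2) and RRM2 (294, 256 and 252 in that order). For IRS1 in DMSO they were in BTBD9 (2, 19 and 17) and LIPA (2, 17 and 19), and for SMAD3 in SIRPB1 (6, 20 and 40) and TMEM165 (6, 22 and 48). For IRS1 in ATRA they were near REEP4 (28, 7 and 9) and in GBF1 (27, 7 and 10), and for TGFBR2 in MRVI1, KALRN and FHL1, which tied (0, 10 and 17 in each). The likeness is over 3 libraries of 1 table and includes depth. The 2 nearest regions, with ties, were taken at any distance, so every member was given a match. Distances ran from 0.078 (BTBD9 for IRS1 in DMSO) to 0.362 (GBF1 for IRS1 in ATRA). How near a typical region's match lies was not measured. The uneven hairpins of SMAD3 were also seen at SIRPB1 and TMEM165.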

How the data were processed

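ATAC-seq libraries of NB4 cells (50000 cells per condition, per the labels' protocols) were grouped by title. For the DMSO control, the description field mentions ATRA, and the title was followed. The submitters' processing notes name GRCh37.p13 and the tools MACS2, edgeR, STAR, bcl2fastq and Picard 2.5.0; their settings are not stated in the sources used here. Per the file headers, the authors deposited raw read counts, normalized counts (a signal), log2 fold change, mean log2 CPM, F score and unadjusted p-value for each region. The deposited normalized counts are the raw counts times 1 factor per library. Those factors equalled DESeq2 size factors computed on the listed regions alone within 0.00105% in DMSO and 0.000474% in ATRA. They therefore rest on regions selected for differing, and on that scale every log2 ratio of knockdown to control is lower by 0.18 in DMSO and 1.00 in ATRA. Effective library sizes were recovered from the deposited fold changes and abundances by least squares, with a largest deviation of 0.0066 log2 units in DMSO and 0.0017 in ATRA, and recovery was tested on simulated data. Ratios are summed knockdown reads over control reads per library size, with 95% exact conditional binomial intervals, which cover counting error only. A control of 0 reads was set to 3 for bounds. Tables were fitted whole with edgeR 4.0.16 (quasi-likelihood, R 4.3.3; filterByExpr; Benjamini-Hochberg, threshold 0.05) and DESeq2 1.42.0. The rule named all regions of the 4 genes and the pathway lists, and the 2 most alike by counts with ties. Outside it, RHBDD1 (the nearest listed neighbour of IRS1), the genes listed in both tables and not all higher (MLPH, BCL7A), SEL1L and the marker AZU1 were named after their values were seen. Counts of listed genes were set beside RefSeq protein-coding genes (GRCh38.p14 symbols or synonyms), of which 317 matched a gene of the 319 in DMSO and 260 of the 261 in ATRA. The members and lists were chosen with earlier results of these data known.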

Additional observations from a re-analysis of the deposited data

How the results depend on the processing

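All 5 regions kept their direction under every alternative run: the normalized count scale, DESeq2 size factors, each hairpin alone, equal weight to the hairpins and, for TGFBR2, a floor of 1 read. Among all listed regions, 0 of 323 in DMSO and 26 of 268 in ATRA changed direction on the normalized count scale. Keeping direction there is thus common and no trait of the members. With both hairpins on the same side of the control at each region, the single-hairpin and equal-weight runs could not reverse it. A floor of 1 read can only raise the TGFBR2 bound. These runs are therefore no check of direction. The runs other than the normalized count scale were not counted over all regions. On the normalized count scale the log2 ratio of knockdown to control moved from -0.51 to -0.69 at DUSP6, from 2.90 to 2.72 at IRS1 in DMSO, from -2.33 to -3.34 at IRS1 in ATRA and, as a bound, from 1.94 to 0.94 at TGFBR2. DESeq2 size factors are the same scale and gave the same rounded values. A floor of 1 read raised the TGFBR2 bound to 3.53. With 1 hairpin left out, the log2 ratio ran from -0.62 to -0.40 at DUSP6, 2.81 to 2.99 at IRS1 in DMSO, 1.41 to 2.42 at SMAD3, -2.57 to -2.12 at IRS1 in ATRA and 1.29 to 2.40 at TGFBR2. The SMAD3 ratio was 2.65-fold without shRNA2, and the TGFBR2 bound 2.45-fold. Over each table, which was itself selected by p, the calls of edgeR's quasi-likelihood test were 314 of 314 regions (DMSO, 206 higher and 108 lower) and 267 of 267 (ATRA, 211 and 56), or 148 in ATRA on the normalized count scale (91 and 57). With its own size factors DESeq2 called 21 (0 higher) of the 29 DMSO regions left by its independent filtering and 28 (0 higher) of 128 in ATRA, and at the recovered library sizes 0 in both (104 and 130 at an unadjusted p under 0.05). Adjusted over the 54588 and 49696 regions that the deposited F and p imply were tested, 0 passed in either (all 323 and 268 at an unadjusted p under 0.05). The numbers 54588 and 49696 are denominator degrees of freedom recovered from F and p, read as 1 per tested region. That reading was not checked. The cause of these differences in counts was not tested. No paired analysis was possible because the control has 1 library in each treatment and so shares fewer than 2 numbers with the knockdown. Depth limits the ratios at IRS1 in DMSO, SMAD3 and TGFBR2, where the control has 2, 6 and 0 reads.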
